A study of Mus musculus with 42 samples.

Results

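The data describe how the effect of topical platelet-derived growth factor (PDGF) on gene expression in diabetic mouse wounds changed between 24 h and day 7. For every probe set the PDGF effect was taken as PDGF minus control on the log2 scale, and the effect at 24 h was subtracted from the effect at day 7. The comparison holds 17 of the 42 Affymetrix Mouse430V2 arrays of the series and all 20672 probe sets of the deposited table. At 24 h there were 5 arrays of PDGF-treated and 4 of control-treated wounds, and at day 7 there were 3 and 5. All 4 groups were described by the submitters as female db/db mice, which lack a working leptin receptor and become obese and diabetic, and the methods give an age of 10 to 12 weeks at purchase. The strain label instead reads C57BL/6, and the methods name the BKS background. Wounds 6 mm wide were made in back skin, and the skin around them was collected. The PDGF wounds were given 50 µg of recombinant PDGF-BB on the skin, and the control wounds an anti-ragweed antibody according to the labels, or control Fc according to the methods. The 24 h wounds had 1 dose. The day 7 wounds were dosed every second day, the last time on day 6, so time after wounding and number of doses cannot be told apart in the difference between the times. Wounds given VEGF or IL-22.Fc, the cytokine IL-22 fused to an antibody Fc part, had 5 arrays each at each time and served for comparison. The VEGF dose was 20 µg per the labels, whereas the methods give 50 µg for each protein of the day 7 arrays. For IL-22.Fc a dose of 50 µg was recorded at 24 h and none at day 7. Keratin 5, a protein of basal keratinocytes, had a Krt5 mean log2 level of 13.06 to 13.47 in the 4 groups, and the labelled tissue, skin, thus carried its defining marker. Whole tissue was measured, so fewer cells of a type and less RNA per cell cannot be told apart.

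PDGF-BB is a dimeric growth factor that platelets and macrophages release into wounds. It binds the receptor tyrosine kinases PDGFRA and PDGFRB on fibroblasts, pericytes and smooth muscle cells, and drives their migration and division and the formation of granulation tissue. Macrophages in wounds pass from an inflammatory state to one that is called alternatively activated, which is marked by genes that interleukin-4 and interleukin-13 induce through the transcription factor STAT6. The integrated stress response is a separate program in which the factor ATF4 raises genes of amino acid synthesis and uptake.

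The 3 day 7 PDGF arrays stood apart from all others before any gene was tested. Their log2 levels of the 5′ Gapdh probe set, which reads the start of that transcript, were 11.26, 11.58 and 11.60, and the 5 day 7 control arrays had 12.82 to 12.99. The mean difference was -1.42, and for the 5′ probe set of Actb it was -0.63. These low levels were known when the comparison was chosen, so they are given as a description without a test. At 24 h the direction was the opposite for Gapdh, with 13 to 13.28 on the PDGF arrays against 12.38, 13.27, 12.41 and 12.21 on the control arrays, a difference of 0.55 (2-sided exact permutation p = 0.0635, where 0.00794 was the smallest possible). For Actb at 24 h the difference was 0.16 (exact permutation p = 0.246). The PDGF effect on the 5′ Gapdh level was therefore lower at day 7 than at 24 h, with a difference of -1.97 (standard error 0.21), and that on the 5′ Actb level had a difference of -0.78 (standard error 0.17). Control array 2 at 24 h, with its Gapdh level of 13.27, lay among the PDGF arrays of that time. Probe sets for the 3′ ends of these transcripts were not used here, so a low 5′ level and lower expression of both genes cannot be told apart. On the second principal component of the 37 wound arrays, which held 14.6% of the variance, the day 7 PDGF arrays had scores of 54.8 to 67.1 and all others of -18 to 17.1.

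**Figure D1:**
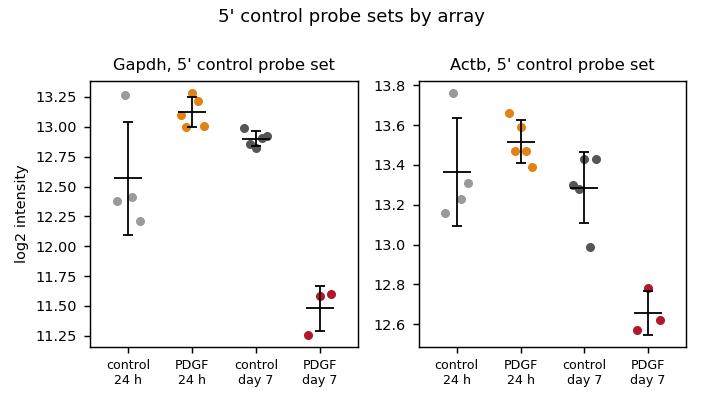
Log2 level (vertical axis) of the 5′ probe sets of Gapdh and Actb on each array of the 4 groups (horizontal axis), with points for arrays, black lines for means and bars for SD. The day 7 PDGF arrays had Gapdh levels of 11.26 to 11.60, below all arrays of the other 3 groups.

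The PDGF effect differed between the times for a large part of the array. With limma over the 37 wound arrays, Benjamini-Hochberg adjustment over all probe sets, an adjusted p under 0.05 and a difference of at least 1.5-fold, the effect was higher at day 7 for 2132 probe sets (10.3% of those tested) and lower for 2193 (10.6%). These rules define every call below, and the shares of 10.3% and 10.6% are the base beside which each list count stands. In list counts, higher and lower refer to this difference between the times unless a time is named, and not to the level with PDGF. At day 7 itself 3291 probe sets (15.9%) differed between PDGF and control, 1323 of them higher with PDGF (6.4%) and 1968 lower (9.52%). At 24 h 246 (1.19%) differed, 75 of them higher (0.363%) and 171 lower (0.827%). Most of the difference thus lay in the day 7 effect. Of the probe sets whose effect was higher at day 7, 1158 were higher with PDGF at day 7 and 95 were lower with PDGF at 24 h, and 893 had neither effect called. Of those whose effect was lower at day 7, 1759 were lower with PDGF at day 7 and 65 were higher with it at 24 h. Both effects were called, in opposite directions, for 56. Across probe sets the effects of the 2 times, which share no arrays, had Pearson's r = -0.32 and Spearman's rho = -0.34, as a description over genes that are not independent.

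**Figure D2:**
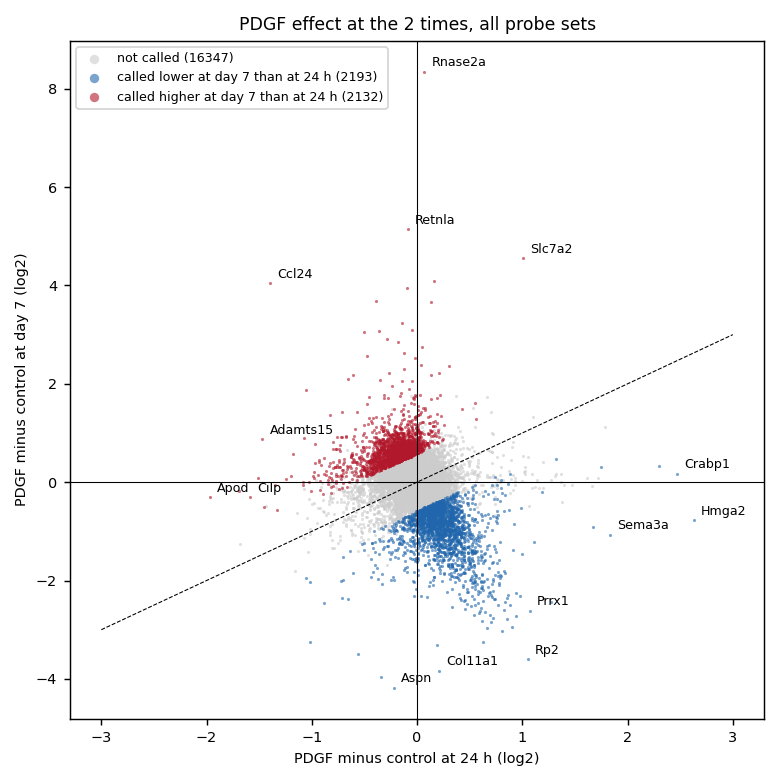
PDGF effect at 24 h (horizontal axis) against the effect at day 7 (vertical axis), both as log2 differences from control, with 1 point per probe set and a dashed line where both effects are equal. Rnase2a lies farthest above the line, with 0.07 at 24 h and 8.35 at day 7, and Rp2 farthest below it among the genes named, with 1.05 and -3.60.

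The 5′ level moved with the groups, and its part in these counts was not tested. With the mean 5′ level of each array as a covariate in the fit, 77 probe sets were called higher and 65 lower, of which 66 and 59 were also called without it, and none was called in the opposite direction. The median standard error of the difference went from 0.162 to 0.294 in that fit. The median difference of the probe sets called higher went from 0.78 to 0.55 and that of those called lower from -1.05 to -0.55, and 95.2% and 86.1% of them kept their sign. Without control array 2 at 24 h the counts were 2470 and 2374, of which 2074 and 2147 were the probe sets called with it, and the calls at 24 h numbered 656 in place of 246.

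Of the PDGF ligands and receptors, 1 of 7 was called higher and 1 lower. Pdgfd, which encodes a ligand of PDGFRB, stood at 2.76 to 2.91 in the day 7 PDGF wounds and at 4.55 to 5.03 in the control wounds, with no overlap, and at 24 h at 3.02 to 3.24 and 2.76 to 3.10. Its effect was lower at day 7, with a difference of -2.08 (limma, standard error 0.25, adjusted p = 5.5e-08). The levels with PDGF and at 24 h were close to the background of the arrays, since Uty, a Y-linked gene that female mice lack, read 2.97 to 3.78 on the 37 wound arrays. The effect of PDGF on Pdgfd at 24 h was therefore not measured, and the size of the difference is uncertain. Pdgfb, the gene of the applied ligand, had a higher effect at day 7, with a difference of 0.93 (limma, standard error 0.20, adjusted p = 3.9e-04). Its levels were 7.55 to 7.63 with PDGF and 6.89 to 7.34 in control wounds at day 7, and 6.45 to 7.12 against 6.94 to 7.46 at 24 h. Neither effect of Pdgfb was called at its own time (0.54 at day 7 and -0.40 at 24 h), and with the 5′ level as covariate the difference was 0.81 (adjusted p = 0.29 from limma) and was not called. Pdgfa and Pdgfc had differences of 0.13 and 0.12 (adjusted p = 0.52 and 0.67 from limma). The receptor genes Pdgfra and Pdgfrb had 0.15 and 0.35 (adjusted p = 0.49 and 0.10 from limma) and were not called, nor was the receptor-like gene Pdgfrl with -0.07 (adjusted p = 0.90 from limma). Pdgfrl was lower with PDGF at both times, by -0.90 at day 7 and -0.83 at 24 h.

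Immediate early genes, which growth factor receptors switch on within minutes, and the feedback inhibitors of the ERK pathway had 6 of 26 members higher and 2 lower, with a median difference of 0.02 against 0.04 over all probe sets. The transcription factors Junb and Atf3 were higher by 1.12 and 1.27 (adjusted p = 0.0066 and 0.024 from limma). Spred1, an inhibitor of the Ras to ERK cascade, was the one with the largest lower value. It read 9.07 to 9.34 with PDGF and 8.35 to 8.55 in control wounds at 24 h, and 7.90 to 7.98 and 8.13 to 8.42 at day 7. The groups did not overlap at either time, and their order turned over, for a difference of -1.07 (standard error 0.15, adjusted p = 1.4e-06 from limma). Fos, Fosb, Jun and Egr1 were not called. None of the 8 calls of this list was kept with the 5′ level as covariate.

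Genes of alternatively activated macrophages included several of the largest differences. The list had 13 of 25 members called higher and 2 lower, with a median difference of 1.07. By role these were 5 of 10 secreted proteins, 1 of 3 enzymes and 7 of 12 surface proteins. Before their values, the promoters of the called members that hold a STAT6-type motif are shown, as a description of sequence only. The motif was taken as TTC and GAA with 4 bases of any kind between them or, with the shorter spacing that other STAT factors use, 3 bases, on both strands. The 5 sequences below are the 250 bases before the RefSeq transcription start (GRCm38.p6), 5′ to 3′ on the strand of the gene, with the motif in capitals. They come from chr16:48842359-48842608 (plus strand, Retnla), chr19:29410669-29410918 (plus, Pdcd1lg2), chr8:3854287-3854536 (minus, Cd209e), chr3:106219480-106219729 (minus, Chil4) and chr3:106167565-106167814 (minus, Chil3).
Retnla: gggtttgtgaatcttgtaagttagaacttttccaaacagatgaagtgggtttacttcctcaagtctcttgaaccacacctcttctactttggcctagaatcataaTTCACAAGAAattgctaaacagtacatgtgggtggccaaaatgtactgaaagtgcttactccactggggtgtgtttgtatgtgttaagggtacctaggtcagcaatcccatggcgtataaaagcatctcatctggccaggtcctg
Pdcd1lg2: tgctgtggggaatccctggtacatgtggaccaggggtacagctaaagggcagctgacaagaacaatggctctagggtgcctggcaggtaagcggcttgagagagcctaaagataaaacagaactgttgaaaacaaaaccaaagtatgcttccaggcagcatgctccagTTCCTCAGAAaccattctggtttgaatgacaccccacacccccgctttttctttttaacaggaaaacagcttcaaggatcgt
Cd209e: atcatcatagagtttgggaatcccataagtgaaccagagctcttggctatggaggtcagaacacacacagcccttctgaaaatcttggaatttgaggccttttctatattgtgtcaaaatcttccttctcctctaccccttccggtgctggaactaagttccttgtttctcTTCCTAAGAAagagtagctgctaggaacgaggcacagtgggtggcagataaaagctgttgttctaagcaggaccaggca
Chil4: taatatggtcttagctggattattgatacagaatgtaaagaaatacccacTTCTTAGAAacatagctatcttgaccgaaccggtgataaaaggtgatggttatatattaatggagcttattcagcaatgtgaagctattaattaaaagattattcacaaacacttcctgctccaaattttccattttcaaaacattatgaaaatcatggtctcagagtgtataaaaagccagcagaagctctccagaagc
Chil3: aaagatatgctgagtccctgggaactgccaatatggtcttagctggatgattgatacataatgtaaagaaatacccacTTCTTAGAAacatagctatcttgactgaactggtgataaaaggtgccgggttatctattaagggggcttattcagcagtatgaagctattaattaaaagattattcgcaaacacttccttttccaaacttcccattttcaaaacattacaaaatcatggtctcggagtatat
The motif began 145, 82, 79, 200 and 172 bases before the start, in the order shown, and Chil4 and Chil3 share the same 9 letters. In windows of 300 bases, from 250 before to 50 after the start, 1 of the 2 spacings was found in 14.6% of all 32851 RefSeq promoters. It was found in 6 of 20 windows of the list (30.0%, for the 18 of 25 genes with a promoter in the table) and in 5 of 10 windows of its members called higher (50.0%). The macrophage chemokine gene Ccl17, which was not called, held both spacings. A match describes letters in a window and not a bound site.

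Retnla, which encodes the secreted resistin-like molecule alpha, had log2 levels of 13.38, 13.08 and 13.40 in the day 7 PDGF wounds and 7.19, 8.00, 8.15, 8.53 and 8.86 in the control wounds. At 24 h it read 8.52 to 8.97 with PDGF and 8.59 to 9.44 in the control, so the groups overlapped then and were far apart at day 7. The PDGF effect was -0.09 at 24 h and 5.14 at day 7, a difference of 5.23 (standard error 0.41, adjusted p = 2e-11 from limma). Chil4, which encodes a chitinase-like protein, stood at 7.66, 8.31 and 7.98 with PDGF at day 7 and at 3.75 to 4.47 on all arrays of the other 3 groups. Its difference of 3.93 (standard error 0.16, adjusted p = 3.2e-19 from limma) came from the day 7 PDGF arrays alone. The levels of the other groups lay near background, so the size of the Chil4 difference is uncertain. Chil3, the related Ym1 gene, behaved otherwise. It was high in both groups at 24 h (12.17 to 12.81 with PDGF, 12.01 to 12.55 in control), read 13.62, 13.67 and 13.60 with PDGF at day 7, and fell in the control wounds to 8.48 to 10.85. Its difference of 3.54 (standard error 0.46, adjusted p = 2.3e-07 from limma) thus joined a change of -2.30 over time in the control wounds and one of 1.24 in the PDGF wounds.

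Ccl24, the eosinophil-attracting chemokine eotaxin-2, turned direction between the times. At 24 h it was lower with PDGF, at 6.97, 6.58, 7.18, 7.34 and 7.03, than in the control wounds, at 8.37, 8.47, 8.02 and 8.83. At day 7 it was higher with PDGF, at 11.66, 10.77 and 11.08 against 6.93 to 7.37. The effects were -1.40 and 4.05 and the difference 5.45 (standard error 0.28, adjusted p = 3.1e-16 from limma). Pdcd1lg2, the gene of the T cell inhibitory ligand PD-L2, read 7.71, 7.48 and 7.41 against 3.71 to 3.99 at day 7, and 4.36 to 5.2 against 4.91 to 5.58 at 24 h. It was separate at day 7 and overlapped at 24 h, with a difference of 4.08 (standard error 0.30, adjusted p = 5.9e-12 from limma). Its day 7 control levels lay near background, so the size of this difference is uncertain.

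**Figure D3:**
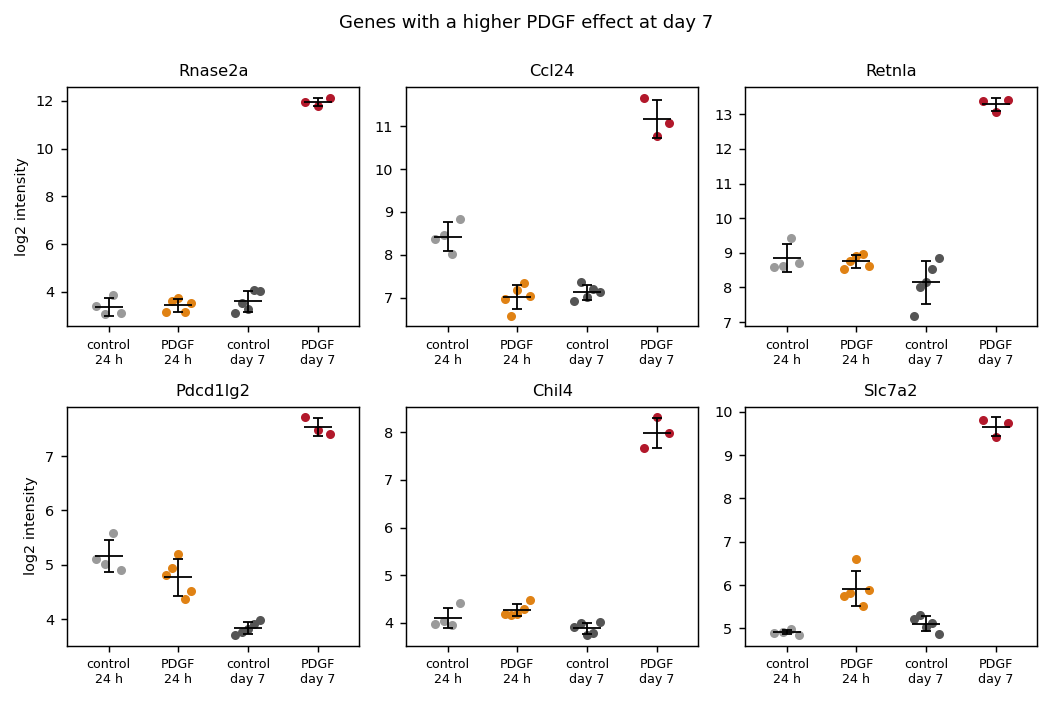
Log2 levels (vertical axis) on each array of the 4 groups for 6 genes with a higher PDGF effect at day 7, with points for arrays, black lines for means and bars for SD. In each panel the 3 day 7 PDGF arrays lie above all other arrays, as for Retnla at 13.08 to 13.40.

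The lectin receptors of this list followed at smaller size. Cd209e, a mouse relative of DC-SIGN that the study itself picked from these arrays, had 8.74, 8.06 and 8.81 with PDGF and 5.04 to 6.08 in control wounds at day 7, with a difference of 3.20 (standard error 0.39). Cd209d had 1.59, Cd209a 1.10, and the haemoglobin scavenger receptor gene Cd163 1.57. The lipoxygenase gene Alox15 had 1.34 and the chemokine gene Ccl8 1.19. Msr1, a scavenger receptor gene, and F13a1, a coagulation factor gene of macrophages, were lower by -1.42 and -0.98 (adjusted p = 2.5e-04 and 9e-06 from limma). Arg1, the arginase gene often used to mark this state, had 1.07 (adjusted p = 0.11 from limma), and Mrc1, which encodes the mannose receptor, had 0.45 (adjusted p = 0.13), so neither was called. The summed linear intensity of the list was 69800 to 76500 on the day 7 PDGF arrays and 22500 to 30700 on the arrays of the other groups. Of the 13 members 4 stayed called with the 5′ level as covariate (Ccl24, Retnla, Pdcd1lg2 and Chil4), and the list median was 0.66. Chil3 then had 3.26 (adjusted p = 0.06 from limma) and Cd209e 1.23 (adjusted p = 0.33).

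The single largest difference belonged to Rnase2a, a gene of the eosinophil-associated ribonuclease family. It read 11.97, 11.80 and 12.11 in the day 7 PDGF wounds and 3.13 to 4.08 in the day 7 controls, and 3.18 to 3.75 and 3.09 to 3.87 at 24 h. The arrays of the other 3 groups lay at or near background. The difference was 8.28 (standard error 0.29, adjusted p = 5e-21 from limma), of which the 24 h part compares levels that were not above background, and it was 7.47 with the 5′ level as covariate (adjusted p = 1.7e-11). The other eosinophil genes had smaller values. Of the 7 members of that list 2 were called higher, the other being the surface lectin gene Siglecf at 0.66, whose levels of 2.42 to 3.74 lay within background. The defining granule genes Epx, Prg2 and Prg3 and the receptor genes Ccr3 and Il5ra had group means of 2.97 to 3.85 in all 4 groups.

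The genes of the 2 cytokines that induce this macrophage state had low levels that did not differ by the test. Il4 read 3.51 to 4.14 on the 17 arrays, with a difference of -0.02 (adjusted p = 0.94 from limma), and Il13 had group means of 3.92 to 4.14 and a difference of 0.40 (adjusted p = 0.058). Part of these levels lay just above the range of Uty. Il5, the gene of an eosinophil growth factor, read 3.03 to 3.45, within that range. Of 13 type 2 cytokine and receptor genes, Crlf2, a subunit of the TSLP receptor, was higher by 0.85, and Tslp itself and Il13ra1, a receptor chain for interleukin-13, were lower by -1.80 and -1.01 (adjusted p = 9.4e-04, 7e-04 and 1.3e-04 from limma). None of the 3 calls was kept with the 5′ level as covariate.

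Other macrophage genes did not share one direction. Of 19 monocyte and macrophage markers, Cd68, Csf1r and Mertk were higher by 1.31, 0.72 and 0.70, and Lyz2, Adgre1 and Itgam were lower by -1.35, -1.04 and -0.78. The list median was 0.01. Its summed intensity was 41200 to 46200 with PDGF and 40400 to 50300 in control wounds at day 7. Cybb, the catalytic subunit of the phagocyte NADPH oxidase, was among the 10 lowest of all genes. It had 5.41, 5.90 and 5.82 with PDGF and 8.32 to 8.67 in the control at day 7, against 8.30 to 9.15 and 7.26 to 8.27 at 24 h, for a difference of -3.64 (standard error 0.45, adjusted p = 1.2e-07 from limma). No member of the macrophage list was called with the 5′ level as covariate, where Itgam turned to 0.47 and Cybb had -1.96 (adjusted p = 0.21).

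Antigen presentation genes were higher. Of 10 MHC class II and Langerhans cell genes, 6 were called higher and none lower, with a median of 1.34. Cd74, the invariant chain that escorts MHC class II molecules, read 12.48, 12.53 and 12.46 with PDGF and 11.15 to 11.84 in control wounds at day 7, and 11.07 to 11.96 against 11.48 to 12.45 at 24 h. It was thus above the controls at day 7 and overlapped them at 24 h, with a difference of 1.48 (standard error 0.28, adjusted p = 8.8e-05 from limma). The class II chain genes H2-Ab1, H2-Aa and H2-Eb1 had 1.74, 1.38 and 1.38, and the dendritic cell integrin gene Itgax had 2.00. The Langerhans cell marker Cd207 had -0.30 (adjusted p = 0.26 from limma) and was not called. These 6 calls were all lost with the 5′ level as covariate, where the median was 0.22.

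Mast cell genes were lower, in 4 of 9 members, with a median of -0.58. Hpgds, the prostaglandin D2 synthase gene of mast cells and some macrophages, read 5.58, 5.14 and 5.08 with PDGF and 7.61 to 8.06 in the control wounds at day 7. At 24 h it read 7.34 to 7.91 and 6.47 to 8.18, and its difference was -3.03 (standard error 0.36, adjusted p = 5.4e-08 from limma). The high-affinity IgE receptor genes Ms4a2 and Fcer1a had -1.66 and -1.61 and the protease gene Mcpt4 had -0.62. The protease genes Cma1, Tpsb2 and Cpa3 were not called, with -0.13, 0.06 and -0.58, and none of the 4 calls was kept with the 5′ level as covariate. Neutrophil genes had no call among 15 at either sign. Of 25 inflammatory cytokine and chemokine genes, Tnf was higher by 1.5, and the chemokine genes Ccl2 and Cxcl9 were lower by -2.02 and -1.41 (adjusted p = 0.0023, 1.9e-04 and 0.043 from limma). None of these 3 calls was kept with the 5′ level as covariate, and that of Cxcl9 was also lost without control array 2 at 24 h (adjusted p = 0.075). In the Syk and C-type lectin list Syk, a kinase gene that the study picked from these arrays, had 1.61 and the receptor gene Clec5a had -2.23, with 3 of 12 members higher and 2 lower. With that covariate no member of the list was called, and Clec5a had -0.25 (adjusted p = 0.84 from limma).

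Integrated stress response genes were higher in 14 of 37 members and lower in 3, with a median of 0.51. The response element of this program, to which ATF4 and C/EBP factors bind together, was searched as TGATGNAA on both strands. It was found in 3.97% of all 32851 promoter windows of 300 bases, in 12 of 35 windows of the list (34.3%, for 32 of 37 genes) and in 6 of 13 windows of the members called higher (46.2%). The sequences of 3 called members that are classical targets are shown, as the 250 bases before the start with the element in capitals, from chr2:119350992-119351241 (plus strand, Chac1), chr7:45615491-45615740 (minus, Fgf21) and chr6:7693210-7693459 (minus, Asns).
Chac1: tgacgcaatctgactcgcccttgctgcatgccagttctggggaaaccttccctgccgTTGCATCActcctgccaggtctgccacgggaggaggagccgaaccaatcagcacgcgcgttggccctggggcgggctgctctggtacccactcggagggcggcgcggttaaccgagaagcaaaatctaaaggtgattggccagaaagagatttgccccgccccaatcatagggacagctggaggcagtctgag
Fgf21: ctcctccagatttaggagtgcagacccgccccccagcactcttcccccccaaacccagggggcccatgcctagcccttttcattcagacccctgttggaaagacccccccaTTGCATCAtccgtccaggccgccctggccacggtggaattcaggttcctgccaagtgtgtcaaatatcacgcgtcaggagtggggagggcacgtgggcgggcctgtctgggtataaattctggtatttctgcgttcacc
Asns: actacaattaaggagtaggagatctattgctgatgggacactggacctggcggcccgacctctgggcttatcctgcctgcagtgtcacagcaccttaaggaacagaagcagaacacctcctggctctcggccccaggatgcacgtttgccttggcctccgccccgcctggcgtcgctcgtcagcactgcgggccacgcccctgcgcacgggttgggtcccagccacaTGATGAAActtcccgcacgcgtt
The element began 193, 139 and 23 bases before the start, and in Chac1 and Fgf21 it lay on the opposite strand. Iars, a member called lower, held it too, as did Nupr1, Vldlr, Gars, Tars and Yars, which were not called. The members were listed as genes of this program, so the share of the list is a description of sequence only. Here too a match describes letters and not a bound site.

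Cth, which encodes the enzyme that makes cysteine from cystathionine, had the highest value of this list. It read 7.31, 6.97 and 6.96 with PDGF and 3.94 to 4.97 in the control at day 7, and 4.39 to 5.08 and 4.45 to 5.39 at 24 h. The groups were apart at day 7 and overlapped at 24 h, for a difference of 2.76 (standard error 0.29, adjusted p = 6e-09 from limma). Trib3, a pseudokinase gene induced by ATF4, read 7.81, 7.72 and 7.49 against 6.08 to 6.36 at day 7, with a difference of 1.71 (standard error 0.15). Fgf21, a secreted hormone gene that the study picked from these arrays, read 7.21, 6.76 and 6.18 against 4.77 to 5.13, with 1.55 (standard error 0.20). Chac1, a glutathione-degrading enzyme gene, had 1.17 and Asns, the asparagine synthetase gene, had 0.87. The serine pathway genes Phgdh and Shmt2 had 1.18 and 1.07.

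The factor genes upstream were smaller. Atf4 had 0.54 (adjusted p = 7.1e-04 from limma), under the fold threshold, and Ddit3 had 0.51 (adjusted p = 0.065). Of the 12 aminoacyl-tRNA synthetase genes, 3 were higher and 2 lower, with Wars at 0.81 and Iars at -1.34. Of the 14, 3 stayed called with the 5′ level as covariate, among them Cth at 3.76 and Trib3 at 1.67 (adjusted p = 4.3e-05 and 0.0018 from limma), and the list median was 0.57.

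Amino acid transporters had 7 of 24 members higher and 4 lower. Slc7a2, which carries arginine and other cationic amino acids, was the only gene of the 10 with the highest differences that PDGF had already raised at 24 h, where it read 5.75, 5.82, 6.61, 5.52 and 5.89 against 4.85 to 4.98. At day 7 it read 9.81, 9.42 and 9.75 against 4.88 to 5.30. The effect thus grew from 1.01 to 4.55, a difference of 3.54 (standard error 0.30, adjusted p = 1.7e-10 from limma). Slc7a3, a second cationic transporter gene that the study picked from these arrays, read 6.82, 6.18 and 6.08 with PDGF at day 7 and 4.44 to 4.83 on the other arrays, for a difference of 1.75 (standard error 0.16). Both kept their calls with the 5′ level as covariate, at 3.80 and 1.63. The large neutral amino acid transporter gene Slc7a5 and its partner chain Slc3a2 had 1.54 and 1.10, and Slc6a14 and Slc38a4 had -2.23 and -1.92.

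Lysosomal genes were higher in 13 of 33 members and lower in 3, with a median of 0.45. Ctsl, the cathepsin L gene, read 8.73, 8.62 and 8.55 with PDGF against 6.59 to 7.16 in the control at day 7, and 5.98 to 6.41 against 5.79 to 6.12 at 24 h, for a difference of 1.52 (standard error 0.20, adjusted p = 3.7e-07 from limma). It kept its call with the 5′ level as covariate, at 1.78 (adjusted p = 0.017). Of 15 subunit genes of the V-type ATPase, which acidifies lysosomes, 7 were higher, led by Atp6v0d2 at 1.38 and Atp6v0b at 1.25. Atp6v1a, which encodes the catalytic subunit of the same enzyme, was lower by -1.68 (standard error 0.20) and read 9.13, 9.34 and 9.41 with PDGF against 10.40 to 10.86. Subunits of 1 complex thus had opposite signs. Chromatin regulators had 14 of 42 members higher and 5 lower. Over all probe sets 10.3% were higher and 10.6% lower, and the lower counts of both lists were close to that share. The remodeller gene Chd4 had 1.10, whereas the histone chaperone gene Rbbp4 had -2.14 and the demethylase gene Kdm5a -1.72. In the fit with the 5′ level as covariate 1 lysosomal and 1 chromatin gene stayed called, and Rbbp4 had -0.31 (adjusted p = 0.68 from limma).

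The largest lower differences were a mixed set of matrix and other genes. Col11a1, the gene of a fibrillar collagen chain, read 7.56, 6.02, 6.98, 7.63 and 7.81 in the control wounds at day 7 and 3.00, 3.62 and 3.47 with PDGF. At 24 h it was at 2.6 to 3.68 in both groups, near background. It rose by 4.49 over time in control wounds, and the PDGF wounds had 0.45, so the difference was -4.05 (standard error 0.34, adjusted p = 8.8e-11 from limma). Aspn, a small leucine-rich proteoglycan gene, read 10.49 to 11.34 in the day 7 controls and 5.75, 7.27 and 7.45 with PDGF, against 6.33 to 7.33 and 5.78 to 6.82 at 24 h, for a difference of -3.96 (standard error 0.53). In both genes the level with PDGF at day 7 was close to that of 24 h. The other small proteoglycan genes Ogn and Lum had -2.94 and -2.16. In the difference 4 of 13 members of that family were lower, and Dcn was higher by 0.86. No member, Dcn included, was called higher with PDGF at either time, and 7 were lower at day 7 and 1 at 24 h.

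Rp2, which encodes a GTPase activating protein, had the lowest value of all named genes. It read 3.10, 3.19 and 3.24 with PDGF and 6.60 to 6.95 in the control at day 7, and 5.78 to 6.87 against 5.22, 6.15, 4.93 and 4.53 at 24 h. Its difference was -4.65 (standard error 0.39, adjusted p = 1e-10 from limma). Its size is uncertain, since the day 7 PDGF level was at background. Lims1, a gene of focal adhesions, read 4.96, 5.25 and 5.33 against 7.99 to 8.56 at day 7, and 8.16 to 8.69 against 7.46, 8.49, 7.38 and 7.2 at 24 h, with -3.84 (standard error 0.27). Prrx1, a homeobox factor gene of fibroblasts, read 4.83, 5.08 and 5.50 against 7.50 to 7.96, and 6.76 to 7.47 against 5.32 to 6.54, with -3.69 (standard error 0.34). The 3 genes were called lower with PDGF at day 7 and higher at 24 h, by 1.05, 0.81 and 1.07. Sh3bgrl, Zfp386, Rnf13 and Zfp266, with -3.86, -3.84, -3.66 and -3.63, had the same 2 signs, though their effects of 0.63 to 0.94 at 24 h were not called. At 24 h, control array 2 was the highest of the 4 control arrays for each of these 7 genes, and it was the one with the high 5′ Gapdh level. Without it the 24 h effects of Rp2, Lims1 and Prrx1 were 1.37, 1.10 and 1.30, and those of Sh3bgrl, Zfp386, Rnf13 and Zfp266 were 0.86, 1.32, 1.33 and 0.93 and were called too. With the 5′ level as covariate Rp2, Col11a1, Sh3bgrl, Lims1 and Prrx1 stayed called, at -2.81, -3.99, -2.34, -2.15 and -2.44, and Aspn, Zfp386, Rnf13 and Zfp266 did not.

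Matrix genes as lists had more members lower than higher. Of 33 collagens 8 were lower and 1 higher, with Col8a1 at -2.86 and Col5a3 at 1.00, and a median of -0.01. With PDGF 9 collagens were lower at day 7 and 1 at 24 h, and none was higher at either time. The count lower at 24 h was 5 without control array 2. The genes of the most abundant fibrillar collagen, Col1a1 and Col1a2, had -0.42 and 0.40 (adjusted p = 0.38 and 0.43 from limma) and were not called. Of 19 matrix crosslinking and TGF-beta target genes 8 were lower and 2 higher. Thbs1, the thrombospondin-1 gene, read 8.38, 8.92 and 8.65 against 10.14 to 10.92 at day 7, and 12.71 to 13.17 against 12.07 to 12.76 at 24 h, with -2.48 (standard error 0.40, adjusted p = 8.9e-06 from limma). Cthrc1, Postn and Thbs2 had -1.78, -1.63 and -1.62. Of 25 fibroblast genes 7 were lower and 2 higher, and of 21 matrix proteases and their inhibitors 4 were lower and 2 higher, with the inhibitor gene Timp3 at -2.39 and the protease gene Mmp14 at -1.40. The summed intensity of the fibroblast list was 36100 to 53600 with PDGF and 61300 to 86200 in control wounds at day 7, and 19800 to 24700 and 20600 to 28100 at 24 h. With the 5′ level as covariate 3 collagens and 2 fibroblast genes stayed called lower in the difference, and no member of the crosslinking list did. Timp2 turned from -0.86 to 0.65 in that fit.

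A second set of genes had a difference and a PDGF effect called at 24 h. Hmga2, the gene of a chromatin protein of embryonic and dividing cells, read 6.80, 6.93, 6.94, 7.87 and 8.06 with PDGF at 24 h and 4.51, 5.72, 3.86 and 4.65 in the control, with no overlap. At day 7 it read 5.40, 5.12 and 4.33 against 5.08 to 6.41, with overlap. Its effect of 2.63 at 24 h and -0.77 at day 7 gave a difference of -3.41 (standard error 0.49, adjusted p = 1.6e-06 from limma). Crabp1, a retinoic acid binding protein gene of dermal fibroblasts, read 10.60, 10.73, 10.58, 10.10 and 9.66 with PDGF at 24 h and 7.96, 7.63, 8.19 and 7.66 in the control. By day 7 the control wounds had 9.21 to 10.47 and the PDGF wounds 9.82 to 10.30. The control wounds thus came to the level that PDGF wounds had at 24 h, a change of 1.99 over time, and the difference was -2.30 (standard error 0.37). Sema3a, the gene of a secreted axon guidance protein, went from an effect of 1.83 to -1.07, Tnfrsf11b, the osteoprotegerin gene, from 1.67 to -0.92, and Tnc, the tenascin C gene, from 1.75 to 0.30. The day 7 effects of Sema3a and Tnfrsf11b were called as well, in the direction opposite to 24 h, and that of Tnc was not. Their differences were -2.90, -2.58 and -1.45 (adjusted p = 7.3e-10, 3.9e-06 and 0.022 from limma).

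Other genes of this set were lowered by PDGF at 24 h. Apod, the apolipoprotein D gene, read 6.75 to 6.99 with PDGF at 24 h against 9.01, 8.18, 9.04 and 9.09, and at day 7 6.73 to 6.84 against 6.86 to 7.40. Here too the control wounds had come to the PDGF level by day 7, and the effects of -1.97 and -0.30 gave a difference of 1.67 (standard error 0.33, adjusted p = 1.2e-04 from limma). Cilp, a cartilage matrix protein gene, read 6.28 to 7.56 against 7.95 to 9.18 at 24 h and 9.68 to 10.44 against 10.28 to 10.72 at day 7. Both groups rose, and the difference was 1.28 (standard error 0.32). Adamts15, a versican-cleaving protease gene, changed sign, from -1.47 (5.12 to 6.11 against 6.13 to 7.50) to 0.87 (8.54 to 9.63 against 7.42 to 8.81), a difference of 2.34 (standard error 0.38). Ism1 and Pcsk5 had effects of -1.69 and -1.51 at 24 h, -0.18 and 0.09 at day 7, and differences of 1.51 and 1.59. Of the 10 genes named for their effect at 24 h, Sema3a and Tnfrsf11b kept the call of the difference with the 5′ level as covariate, while Tnc had -0.20 and Apod 0.05 in that fit.

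**Figure D4:**
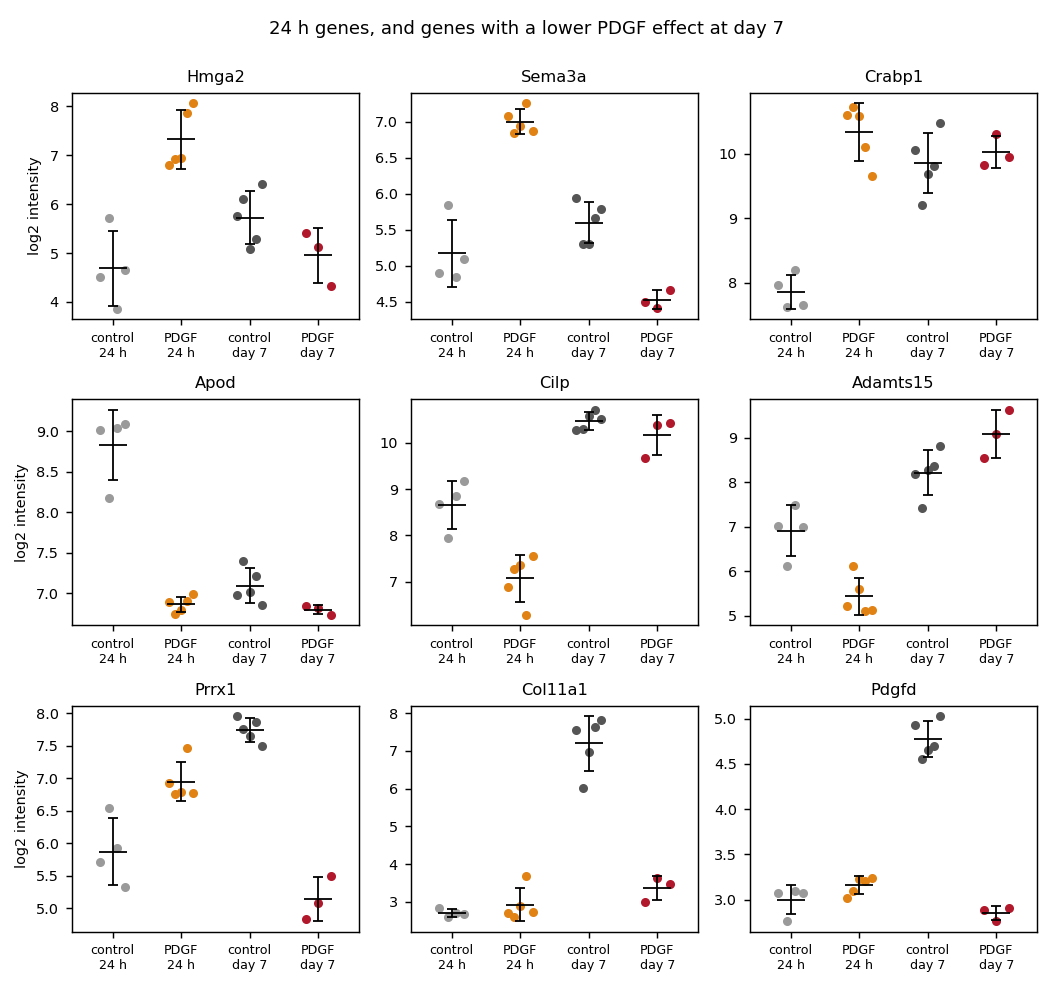
Log2 levels (vertical axis) on each array of the 4 groups for 9 genes, with points for arrays, black lines for means and bars for SD. Hmga2, Sema3a and Crabp1 lie apart at 24 h and close together or turned over at day 7, and Col11a1, Prrx1 and Pdgfd are lower with PDGF at day 7.

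Skeletal muscle genes, from the muscle layer beneath mouse skin, were lower at 24 h as a list. At that time 13 of 19 were lower with PDGF, with a median of -0.80, and at day 7 the median was -0.32 with 1 member higher and 3 lower. In the difference 7 were higher and 1, the nebulin gene Neb, was lower. Casq1, the calsequestrin gene of fast muscle, read 6.89 to 7.66 against 7.80 to 9.09 at 24 h and 9.44 to 9.74 against 8.51 to 9.08 at day 7, for a difference of 1.97 (standard error 0.31, adjusted p = 5.3e-06 from limma). The summed intensity of the list was 17300 to 31100 with PDGF and 31300 to 48900 in control wounds at 24 h, so the amount of muscle RNA in the samples moved with the groups. Its part in the values of other genes was not tested. No muscle gene was called in the difference with the 5′ level as covariate.

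Epidermal genes were counted by layer, and the layers were not tested against each other. Of 13 basal keratinocyte genes 5 were higher and 2 lower, and Krt14 had 1.02 (adjusted p = 8.1e-04 from limma), the one that stayed called with the 5′ level as covariate, at 1.84. Krt14 read 6.61 to 7.09 with PDGF and 5.89 to 6.35 in control wounds at day 7, and 6.09 to 6.49 and 6.32 to 7.36 at 24 h. These levels were far below the Krt5 means given above, so how well this probe set reads Krt14 is uncertain. Of 23 differentiated keratinocyte genes 6 were lower, 2 higher and 15 not called, with a median of -0.02. The desmosome gene Dsc1 had -2.67, the filaggrin gene Flg -1.99 and the desmosome gene Dsg1a -1.83, while Krt1 and Krt10 had -0.08 and -0.36 and were not called. Sprr2f, a cornified envelope gene, was the fifth highest of all genes at 4.05 (standard error 0.94, adjusted p = 8.8e-04 from limma), with 11.51, 11.69 and 11.55 with PDGF at day 7 against 6.07 to 8.33. Wounds given IL-22.Fc had a day 7 mean of 11.25 for it, and PDGF minus IL-22.Fc differed between the times by 0.83 (adjusted p = 0.54). None of the differentiated keratinocyte calls was kept with the 5′ level as covariate, nor was that of Sprr2f, at 3.72 (adjusted p = 0.30 from limma).

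Vessel, nerve and fat cell lists followed. Of 30 endothelial genes 9 were higher in the difference and 3 lower, with the von Willebrand factor gene Vwf at 1.63 and the lymphatic gene Lyve1 at -1.75. At day 7 itself 3 were higher with PDGF and 3 lower, and at 24 h 1 was higher and none lower. Of 16 pericyte and smooth muscle genes 3 were higher in the difference and 1 lower. At each time by itself 3 members were lower with PDGF and none was higher. Rgs5, the pericyte marker, read 5.29, 6.22 and 6.07 with PDGF and 7.96 to 8.40 in the control at day 7, and 5.57 to 6.30 against 6.29 to 6.93 at 24 h, with a difference of -1.72 (standard error 0.32, adjusted p = 7.6e-05 from limma). Of 7 Schwann cell genes 3 were higher, with the myelin gene Mbp at 1.17. Adipocyte genes had 3 of 17 lower in the difference, with the adiponectin gene Adipoq at -1.31, and 1 higher. With PDGF 8 of them were lower at day 7 and 4 at 24 h, and none was higher at either time. None of the calls of the difference in these 4 lists was kept with the 5′ level as covariate.

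Among general cell functions, cell cycle genes had 8 of 29 members lower and 4 higher, where 10.6% and 10.3% of all probe sets were. Their median was -0.11, and 0.42 with the 5′ level as covariate. Several of the counts that follow lay near the shares over all probe sets. The ribonucleotide reductase genes Rrm1 and Rrm2, which supply DNA building blocks, had -2.07 and -1.39, whereas the mitotic genes Cenpe and Cdc20 had 0.88 and 0.75. Sterol synthesis genes had 4 of 17 lower, with Hmgcs1 at -1.57, and 2 higher. Glycolysis and hypoxia genes had 3 of 25 higher and 2 lower, and respiratory chain genes 5 of 28 and 2. No respiratory chain gene was called higher with PDGF at either time, and 2 were lower at day 7. T and NK cell genes had 2 of 11 higher, the cytotoxic granule gene Nkg7 at 0.90 and the T cell receptor subunit gene Cd3d at 0.63. Interferon-stimulated genes had 1 of 19 lower, Ifih1 at -1.14, wound-edge keratinocyte genes 1 of 14, Itgav at -2.02, and hair follicle and sebaceous gland genes 3 of 15. In that last list PDGF array 4 at 24 h stood apart for the hair keratin genes Krt25 and Krt27, at 10.59 and 10.21 against 2.58 to 2.71 and 3.92 to 4.23 on the other PDGF arrays of that time. Neither was called, and their differences of -1.63 and -1.15 were -0.04 and 0.07 without that array. Among these 8 lists no call of the difference was kept with the 5′ level as covariate.

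**Figure D5:**
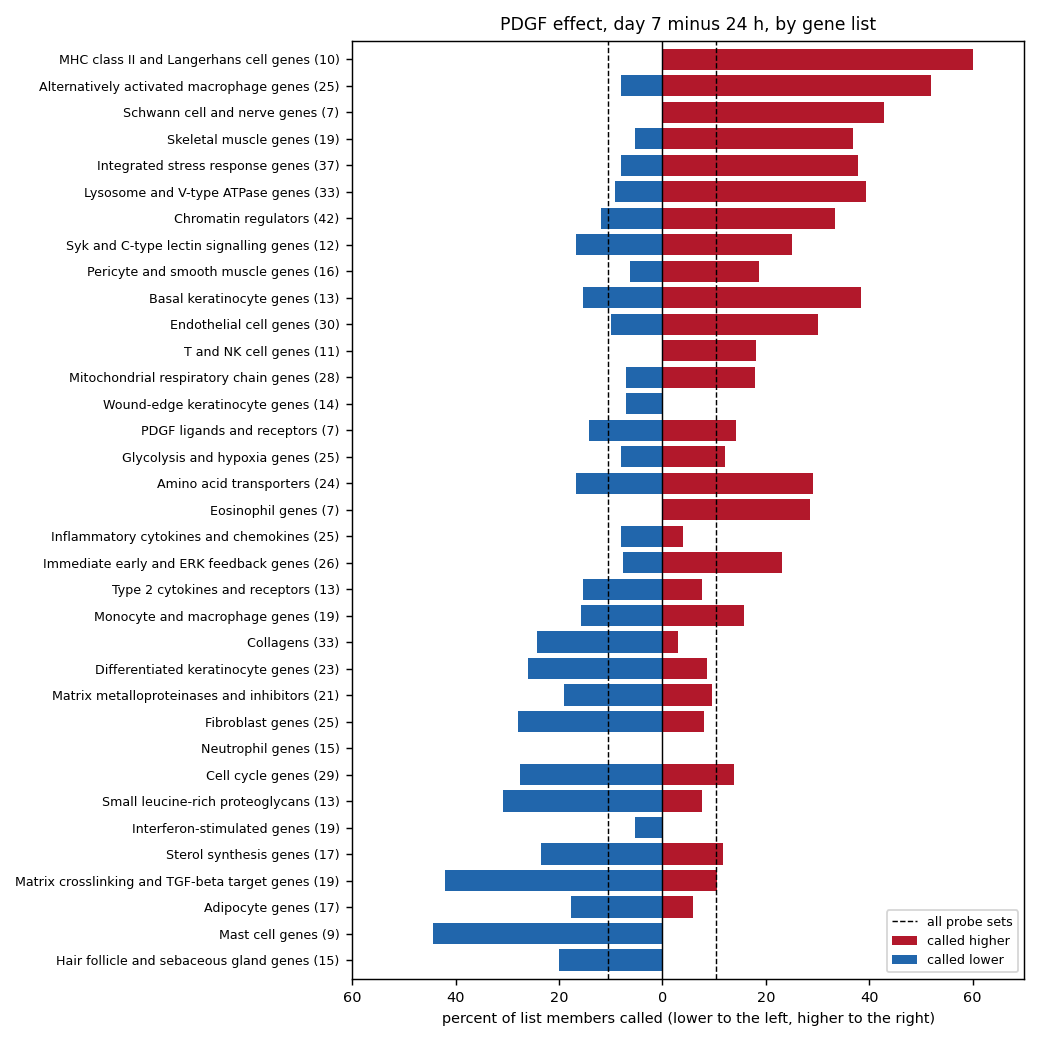
Percent of the measured members of each of the 35 gene lists (vertical axis) whose PDGF effect was called higher or lower at day 7 than at 24 h (horizontal axis). The dashed lines mark the share over all probe sets, 10.3% higher and 10.6% lower, and the alternatively activated macrophage list (13 of 25) and the MHC class II list (6 of 10) have the greatest shares higher.

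The difference between the times was also set against that of the other proteins. PDGF minus VEGF differed between day 7 and 24 h for 4742 probe sets and PDGF minus IL-22.Fc for 4324. These 2 contrasts and that with the control share the PDGF arrays. In all 3 the same direction was called for 1104 probe sets higher and 1395 lower (5.34% and 6.75% of those tested). Rnase2a had 8.28, 8.17 and 8.72 against control, VEGF and IL-22.Fc, Retnla 5.23, 5.64 and 6.15, and Ccl24 5.45, 5.97 and 5.07. On the lower side Rp2 had -4.65, -4.24 and -3.97 and Hmga2 -3.41, -3.51 and -3.55. The day 7 mean of Retnla was 13.29 ± 0.18 (SD, n = 3) with PDGF, 8.15 ± 0.63 (SD, n = 5) in the control, 7.93 ± 0.56 with VEGF and 7.13 ± 0.55 with IL-22.Fc. Of the 13 alternatively activated macrophage genes called higher against the control, 12 were called against all 3, as were 8 of 14 stress response genes and all 6 MHC class II genes. Over all probe sets, 1104 of the 2132 called higher against the control were called against all 3. The stress response count was close to that share. Among these contrasts the 5′ Gapdh level differed too, by -1.97, -1.70 and -2.10.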

How the data were processed

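Skin around wounds was profiled on 42 Affymetrix Mouse430V2 arrays. The authors normalized the arrays with RMA and kept 1 probe set per gene, by their methods the most variable one. They deposited linear intensities of 20672 probe sets, the lowest being 3.85. The part of that choice of probe sets in the counts and sizes given here was not tested. The plan had assumed log2 values, and the log2 of the deposited intensity was taken here. No detection call was used, and the levels rest on no genome build. Of the probe sets, 17928 carry 1 gene symbol, 79 several and 2665 none, from the platform annotation with symbols updated through RefSeq. The number of arrays limits the precision.

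Limma 3.58.1 (R 4.3.3) was fitted to 8 group means over the 37 wound arrays, since the PDGF day 7 group holds 3 arrays, and p-values were adjusted by Benjamini-Hochberg over all probe sets. A call needed an adjusted p under 0.05 and 1.5-fold. The labels do not number arrays within groups, so replicate numbers are names only and p-values measure the spread between arrays. 5′ levels at 24 h were compared by 2-sided exact permutation tests. On simulated data the fit found 85% of 2-fold and 42% of 1.5-fold changes of this contrast at the adjusted p alone, with 7 false calls among 20672. The simulation planted 100 changes, and the part of the 5′ levels in the calls was not tested with it.

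The members, the 35 gene lists (698 of 752 entries measured) and the tests were chosen with earlier results of these data known, and lists are described by counts and medians without a test. Named genes were the 10 largest differences in each direction, 5 in each direction called against all comparators, 5 in each direction with the largest effect at 24 h, the PDGF ligands and receptors, up to 4 called and 2 other members per list, 4 genes of the study and the 5′ probe sets. Further members of a list were named after their values were seen. Alternatives were the 17 arrays alone, all 42 arrays, the mean 5′ level as covariate, array weights, trend and robust moderation, quantile normalization, median centring, log2(value + 16), a floor at background, filters on low or invariant probe sets, other thresholds and leaving out each array. Promoter sequences come from RefSeq (GRCm38.p6). Untreated skin entered the fit over all 42 arrays only.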

Additional observations from a re-analysis of the deposited data

Results flagged for a closer look

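The count of probe sets whose PDGF effect differed between the times, 2132 higher and 2193 lower at day 7, was itself a difference between groups under the same contrast. Of the genes named, 7 had a PDGF effect called in opposite directions at 24 h and day 7. Ccl24 had a difference of 5.45 and Adamts15 of 2.34. Rp2 had -4.65, Lims1 -3.84, Prrx1 -3.69, Sema3a -2.90 and Tnfrsf11b -2.58. The low 5′ levels of the day 7 PDGF arrays moved with all of these, and their part was not tested.

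Single arrays lay far from the rest of their group in 10 of 129 groups of levels tested (43 genes and 5′ probe sets in 3 groups), where chance gives about 1 in 20. At 24 h, control array 2 was the outlying array for Aspn (7.33, others 6.33 to 6.36), Sh3bgrl (10.42, others 9.41 to 9.58), Apod (8.18, others 9.01 to 9.09), Pdgfc (7.34, others 7.94 to 8.02) and Pdgfd (2.76, others 3.07 to 3.10). PDGF array 4 at 24 h was the outlying one for Col11a1 (3.68, others 2.6 to 2.89), Prrx1 (7.47, others 6.76 to 6.92) and Pdgfrb (10.12, others 9.67 to 9.79). The same array was far higher for 2 hair keratin genes that were added after their levels were seen, Krt25 (10.59, others 2.58 to 2.71) and Krt27 (10.21, others 3.92 to 4.23). Retnla read 9.44 on control array 3 at 24 h (others 8.59 to 8.71), and Ddx4 read 2.48 on control array 4 at day 7 (others 2.6 to 2.63), within background.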

How the results depend on the processing

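No paired analysis was possible because the labels give no replicate numbers. With the 5′ level as covariate, the difference was called higher for 77 and lower for 65 probe sets, the day 7 effect for 851, the 24 h effect for 80, the PDGF change over time for 1441, the contrasts with VEGF and IL-22.Fc for 626 and 72, and all 3 for 40, and these members of lists turned sign: Itgam 0.47, Timp2 0.65, Lama3 0.13, Trp63 0.46, Ccna2 0.02, Pfkp 0.76 and P4ha1 0.61. The covariate differs between the groups, so that fit may also remove part of a treatment effect. With no fold threshold the counts were 3733 higher, 7568 at day 7, 586 at 24 h, 7161 and 8472 over time in control and PDGF wounds, 7182 and 6898 against VEGF and IL-22.Fc, and 4235 in all 3. At an adjusted p under 0.01 and 2-fold they were 428 higher and 1151 lower, 1047 at day 7, 36 at 24 h, 1069 and 1817 over time, 1821 and 1609 against VEGF and IL-22.Fc, and 850 in all 3, and the 5′ Actb difference of -0.78 lay under the fold threshold. The count at 24 h was 132 with all 42 arrays and 501 with array weights.

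Leaving out each array in turn gave 1938 to 2470 higher and 1997 to 2374 lower. At day 7 it gave 2868 to 3540, and at 24 h 141 (without control array 4) to 656 (without control array 2), with 150 without control array 3. Of the 36 genes named for size or direction, 16 kept their call state with the 5′ level as covariate and 34 at the stricter thresholds, and at least 35 did under each other alternative that kept all 36. Among counts and called genes named by rule, none other than those given turned direction under the alternatives run. Some list medians changed sign with the 5′ level as covariate. Those of cell cycle and neutrophil genes went from -0.11 to 0.42 and from -0.10 to 0.48. That of T and NK cell genes went from 0.21 to -0.14, and that of PDGF ligands and receptors from 0.13 to -0.12. The 3 day 7 PDGF arrays all had low 5′ levels, so no alternative could leave those levels out, and without 3′ probe sets or detection calls the size of a difference that rests on a level near background is uncertain.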
